A study of Mus musculus with 6 samples.

Results

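The genes described here encode enzymes that make and spend methyl groups in the liver: Bhmt, Bhmt2, Mat1a, Gnmt, Gamt, Sardh, Dmgdh, Chdh, Ahcy and Cth. They were listed by name, and a gene was measured where the array annotation gave a probe set (the group of probes read as 1 value) that gene alone as its symbol. This held for 9 of the 10 listed genes, out of 19938 genes tested, and these 9 had 11 probe sets. Ahcy, the hydrolase that splits S-adenosylhomocysteine, appeared on 3 probe sets that each also list Gm4737, so no value is given for it. A gene with several probe sets was read from its brightest, by the mean of the 6 arrays, and all 3 probe sets of Bhmt are given.

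RNA came from whole liver of C57BL/6 mice, an inbred laboratory strain, that had eaten freely from a regular diet (RD, 3 samples) or a high fat diet (HFD, 3 samples) for 2 days. Each sample was hybridised to its own array, 6 in all. The series design names 3 biological replicates for each diet. Where these are not from separate mice, the p-values measure technical spread alone. The composition of the diets and the age and sex of the mice were not used here, and the letters NI in every sample title are not explained by the labels, so a treatment shared by all arrays is not known. The comparison asks how liver transcripts differ after 2 days of HFD. Values are log2 signals, so a difference of 1 is a change of 2-fold, and levels of different probe sets are not compared, since probes differ in brightness.

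Liver cells take methyl groups from choline. In mitochondria Chdh starts the oxidation of choline to betaine, and in the cytosol Bhmt moves a methyl group of betaine onto homocysteine, which restores methionine and leaves dimethylglycine. Dmgdh and then Sardh strip the remaining methyl groups in mitochondria, giving sarcosine and then glycine. Mat1a turns methionine into S-adenosylmethionine, the methyl donor of most methylation reactions. Gnmt spends that donor on glycine, which makes sarcosine, and Gamt spends it on guanidinoacetate, which makes creatine. The homocysteine left over is either methylated again or sent through cystathionine to cysteine, the step that Cth completes. Bhmt2 is a close relative of Bhmt that uses S-methylmethionine as its donor.

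The promoters of the genes that differed between the diets are shown first, because Bhmt, Bhmt2 and Dmgdh lie side by side on chromosome 13 and behaved differently. The sequences are those of RefSeq on build GRCm38.p6, where 7 of the 9 measured genes had an entry. Each is the 250 bases before the annotated start, 5′ to 3′ on the strand of the gene, and the stretch between Bhmt2 and Dmgdh is the 133 bases that separate their start sites, on the plus strand. Capitals mark matches, on either strand, to the TATA box TATAAA, the CCAAT box, the E-box CACGTG, the nuclear receptor hexamer AGGTCA or the GC box GGGCGG, motifs picked after the expression values were known. The matches describe letters and not bound factors.
Bhmt, chr13:93637759-93638008, minus strand: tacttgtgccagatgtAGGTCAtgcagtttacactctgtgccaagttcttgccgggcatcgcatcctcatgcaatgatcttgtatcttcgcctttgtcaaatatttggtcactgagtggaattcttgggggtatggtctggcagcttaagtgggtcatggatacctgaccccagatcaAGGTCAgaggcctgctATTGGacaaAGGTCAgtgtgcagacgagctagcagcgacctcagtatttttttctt
Bhmt2 to Dmgdh, chr13:93674303-93674435, plus strand: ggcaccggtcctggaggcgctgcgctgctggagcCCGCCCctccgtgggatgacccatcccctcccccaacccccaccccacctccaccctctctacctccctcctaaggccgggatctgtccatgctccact
Gnmt, chr17:46729166-46729415, minus strand: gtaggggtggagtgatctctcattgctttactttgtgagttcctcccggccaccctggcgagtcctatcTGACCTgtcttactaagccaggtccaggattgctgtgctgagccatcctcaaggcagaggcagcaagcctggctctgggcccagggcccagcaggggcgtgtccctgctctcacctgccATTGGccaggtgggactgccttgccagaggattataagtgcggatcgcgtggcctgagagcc
Gamt, chr10:80261013-80261262, minus strand: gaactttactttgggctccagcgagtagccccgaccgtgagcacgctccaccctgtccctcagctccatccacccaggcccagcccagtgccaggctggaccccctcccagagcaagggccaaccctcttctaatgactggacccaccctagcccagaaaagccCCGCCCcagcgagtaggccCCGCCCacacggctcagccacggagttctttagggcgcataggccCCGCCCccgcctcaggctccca
Sardh, chr2:27247304-27247553, minus strand: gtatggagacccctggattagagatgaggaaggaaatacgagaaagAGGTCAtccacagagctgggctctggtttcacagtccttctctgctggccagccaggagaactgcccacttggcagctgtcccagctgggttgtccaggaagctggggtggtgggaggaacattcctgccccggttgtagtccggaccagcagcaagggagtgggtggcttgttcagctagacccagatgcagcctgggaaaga

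Bhmt2 and Dmgdh point away from each other from this 133-base stretch, so they have start sites close together, while Bhmt lies next to Bhmt2 with its own start. The stretch was 69.9% G and C and held 1 GGGCGG match and none of the other motifs. The Bhmt promoter was 48.0% G and C and held AGGTCA, the hexamer recognised by many nuclear receptors, 3 times, ending 229, 67 and 42 bases before the start, and CCAAT once. AGGTCA was found at least once in 14.0% of 32851 RefSeq promoters of the same length and at least 3 times in 0.131% of them. It was found once each in the promoters of Gnmt and Sardh and not in that of Gamt. The Gamt promoter held GGGCGG 3 times, and 8.47% of the 32851 promoters held it at least 3 times. For comparison, TATAAA was found in 12.4%, CCAAT in 33.8%, CACGTG in 6.02% and GGGCGG in 32.7% of those promoters. None of the 5 promoter stretches shown held TATAAA or CACGTG.

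After 2 days of HFD, 5 of the 9 measured genes had fallen: Bhmt, Gamt, Sardh, Gnmt and Dmgdh. None had risen. Across all genes tested, 2.24% were called lower and 3.11% higher (limma, Benjamini-Hochberg adjusted p under 0.05 over all 19938 genes). These are 446 and 621 genes, and omitting 1 array left 178 (without RD replicate 2) to 273 lower and 197 (without RD replicate 1) to 371 higher. Among the 9969 brighter genes, tested alone, 619 were called lower and 862 higher, and all 9 measured genes were in that set. The median log2 difference of the 9 genes, HFD minus RD, was -0.44, against -0.0029 for all genes. The values of the diets did not overlap for 7 of the 9 genes with HFD lower and for 1, Chdh, with HFD higher; 11.7% of all genes lay apart with HFD lower and 14.0% with HFD higher. In bulk tissue, fewer cells of a type and less RNA per cell cannot be told apart.

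**Figure D1:**
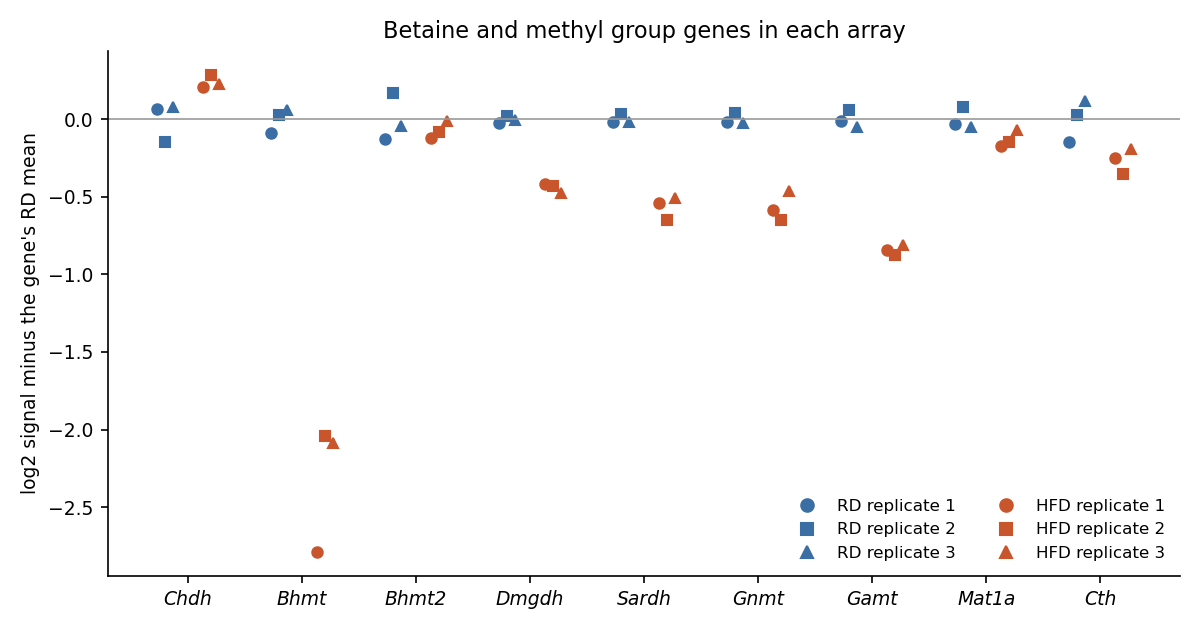
Log2 signal of each measured gene in each of the 6 arrays, minus the mean of the 3 RD arrays of that gene (vertical axis), with RD in blue, HFD in orange and the replicate number as the marker shape. Bhmt fell by 2.31 with HFD replicate 1 lowest, Dmgdh, Sardh, Gnmt and Gamt fell by 0.44 to 0.84 with little spread, and Bhmt2 overlapped between the diets.

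Bhmt, which returns the methyl group of betaine to homocysteine, had a log2 signal of 13.71, 13.82 and 13.85 in RD replicates 1, 2 and 3 and of 11.01, 11.75 and 11.71 in the same order in the HFD replicates (probe set 10457114). All HFD arrays lay far below all RD arrays, and HFD replicate 1 lay below the other two. The means were 13.79 ± 0.08 in RD and 11.49 ± 0.42 in HFD (SD, n = 3 each), a fall of 4.95-fold. The log2 difference was -2.31 ± 0.18 (moderated SE; limma adjusted p = 5.6e-04), which placed Bhmt at rank 7 of 19938 genes by size of fall. On the leading principal component of all genes, which held 51.4% of the variance, the RD arrays lay at -16.5 to -14.5. HFD replicate 1 lay at 21.5 on it, farther from RD than the other HFD arrays at 12.7 and 12.6. Without HFD replicate 1 the Bhmt difference was -2.06, and without any 1 array the adjusted p was at most 0.0052.

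The spread of Bhmt between arrays was wide in HFD (SD 0.42), where replicate 1 lay low, and small in RD (SD 0.08). Its residual SD within diets was 0.30, at percentile 98.1 of all genes, against a median of 0.10 over all genes. The other genes that fell had residual SDs of 0.03 for Dmgdh, 0.04 for Gamt, 0.06 for Sardh and 0.07 for Gnmt. HFD replicate 1, the lowest for Bhmt, was the highest of the HFD arrays for Dmgdh and lay between the other two for Gamt, Sardh and Gnmt. The array that carried the lowest Bhmt signal therefore did not carry the lowest signal of these 4 genes.

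The other Bhmt probe sets fell too. Probe set 10511886 read 13.67, 13.81 and 13.84 in RD and 11.00, 11.75 and 11.68 in HFD, a log2 difference of -2.30 ± 0.20. It differed from probe set 10457114 by 0.0020 to 0.0349 log2 units in every array, so the pair is not an independent measurement of the gene. Probe set 10411142 was far dimmer, at 8.58, 8.53 and 8.62 in RD and 6.03, 6.74 and 6.54 in HFD, a difference of -2.14 ± 0.17. All 3 probe sets put HFD replicate 1 lowest.

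Fitted over all 35512 probe sets, of which 0.487% were called lower, the adjusted p (limma) was 0.0074 for probe set 10411142 and 0.0083 for each of the bright pair. The call of both bright probe sets was lost in that fit without RD replicate 2 (adjusted p = 0.057). In the annotation, the dim probe set lists 2 transcript accessions and each bright one 6. In the order of the array table the dim one stands between Jmy and Bhmt2, genes of chromosome 13, while the bright ones stand among genes of other chromosomes. Whether the bright probes also match copies of the gene elsewhere in the genome was not tested. Detection calls were not used here, so a background level in the HFD arrays, which would make the fold of the dim probe set too small, was not tested either.

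**Figure D2:**
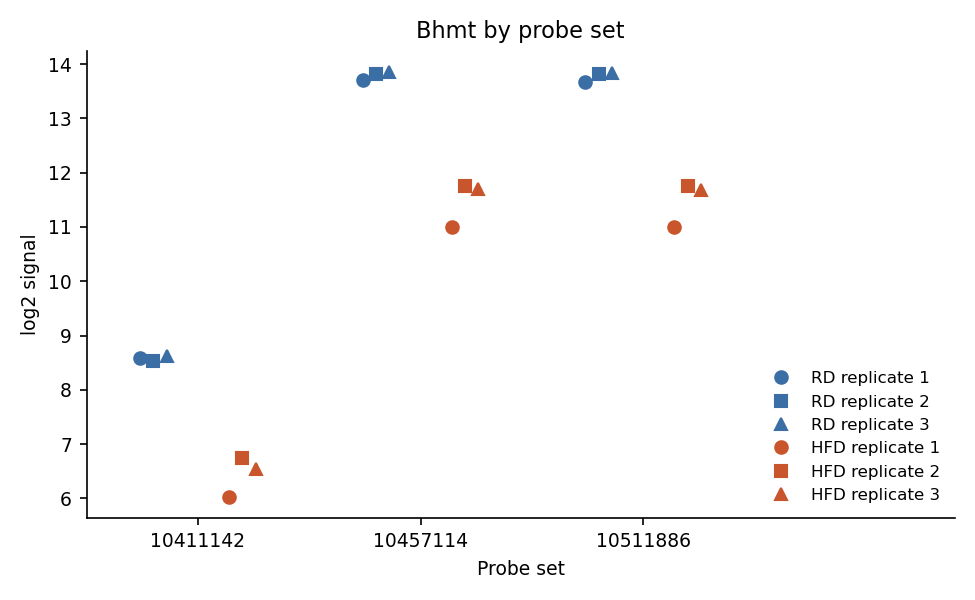
Log2 signal of the 3 Bhmt probe sets (horizontal axis) in each of the 6 arrays, with RD in blue, HFD in orange and the replicate number as the marker shape. The log2 difference, HFD minus RD, was -2.14, -2.31 and -2.30, and HFD replicate 1 was lowest in each.

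Bhmt2, the neighbour and close relative of Bhmt, was not called. Its log2 signal was 12.48, 12.78 and 12.56 in RD and 12.49, 12.52 and 12.60 in HFD, and the diets overlapped. The difference was -0.07 ± 0.09 (adjusted p = 0.733), with a 95% interval from -0.27 to 0.13, so a fall of the size seen for Bhmt lies outside the interval. Taken within each array, Bhmt minus Bhmt2 changed by -2.24 log2 units from RD to HFD, and the 3 HFD arrays did not overlap the 3 RD arrays. An exact two-sided permutation over the arrays gave p = 0.10, the smallest that 3 against 3 allows.

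Dmgdh, the mitochondrial enzyme that removes a methyl group from the dimethylglycine made by Bhmt, fell. It read 12.47, 12.51 and 12.49 in RD and 12.07, 12.06 and 12.02 in HFD. The 6 arrays formed separate tight groups, with means of 12.49 ± 0.02 and 12.05 ± 0.03 (SD, n = 3 each), a fall of 1.36-fold (log2 difference -0.44 ± 0.06; adjusted p = 0.0068). Dmgdh and Bhmt2, whose start sites are 133 bases apart, did not move alike: within arrays Bhmt2 minus Dmgdh was higher in HFD by 0.37 log2 units, with no overlap (exact p = 0.10). Bhmt minus Dmgdh changed by -1.87 log2 units (exact p = 0.10), so Bhmt fell further, and over these 3 comparisons the adjusted p was also 0.10.

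None of the genes around the Bhmt, Bhmt2 and Dmgdh run was called. On the side of Bhmt the nearest genes with a value were Jmy (-0.24 ± 0.09, adjusted p = 0.163), Homer1 (0.0022 ± 0.07) and Tent2 (0.11 ± 0.06). On the side of Dmgdh they were Arsb (-0.13 ± 0.07), Lhfpl2 (-0.16 ± 0.12) and Scamp1 (-0.09 ± 0.08). The adjusted p of these 6 genes was 0.163 or higher. Jmy and Arsb had HFD values wholly below the RD values and Tent2 wholly above them, each by a small margin.

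**Figure D3:**
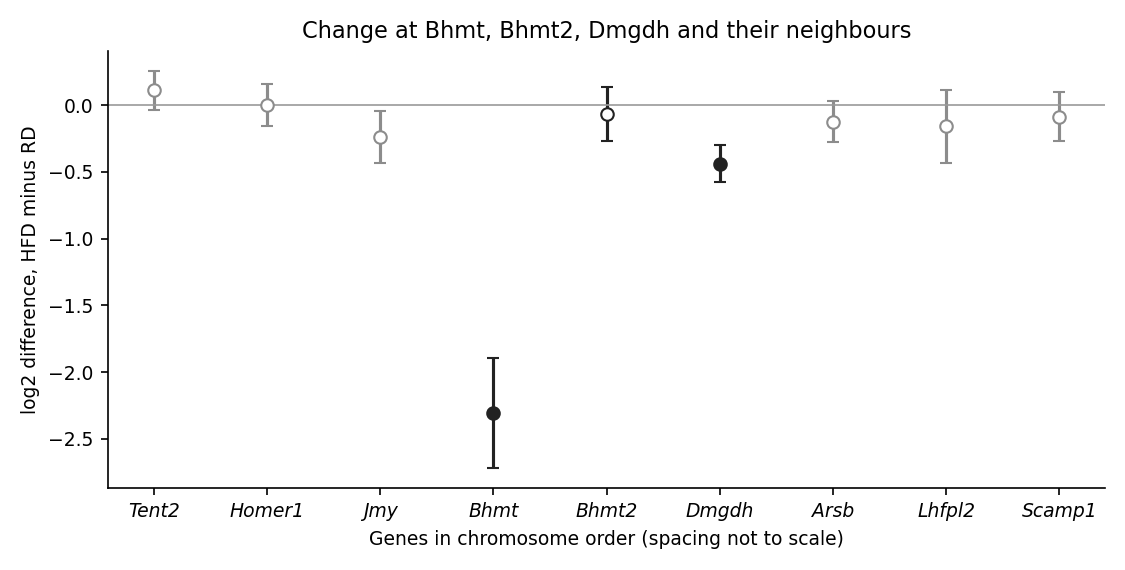
Log2 difference, HFD minus RD (points) with its 95% interval (bars) for Bhmt, Bhmt2, Dmgdh (black) and the 3 nearest genes with a value on each side (grey), in chromosome order with spacing not to scale; filled points passed an adjusted p of 0.05. Bhmt (-2.31, read from probe set 10457114) and Dmgdh (-0.44) passed, and Bhmt2 between them (-0.07) and the 6 flanking genes did not. The dim Bhmt probe set 10411142, which stands among chromosome 13 genes in the array table, is not drawn and differed by -2.14.

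Sardh, which takes the last methyl group off sarcosine in mitochondria and leaves glycine, also fell. The arrays read 13.16, 13.21 and 13.16 in RD and 12.64, 12.53 and 12.67 in HFD, with no overlap. The fall was 1.48-fold (log2 difference -0.57 ± 0.07; adjusted p = 0.0033). The 3 enzymes in a row from betaine to glycine, Bhmt, Dmgdh and Sardh, were thus all lower in each HFD array than in any RD array.

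Chdh, which feeds this route by oxidising choline, did not follow it. Its log2 signal was 10.82, 10.60 and 10.83 in RD and 10.96, 11.04 and 10.98 in HFD. All HFD values lay above all RD values, but the difference of 0.24 ± 0.08 did not pass (adjusted p = 0.134; 95% interval 0.06 to 0.43). RD replicate 2 was the low array, and without it the difference was 0.17.

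Gnmt, an abundant liver enzyme that consumes S-adenosylmethionine by methylating glycine, fell. The log2 signal was 13.57, 13.63 and 13.56 in RD and 13.00, 12.94 and 13.13 in HFD, again in separate groups. The fall was 1.48-fold (log2 difference -0.57 ± 0.07; adjusted p = 0.0046). Gnmt makes sarcosine and Sardh removes it, and both fell 1.48-fold.

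Gamt, the last enzyme of creatine synthesis and a large consumer of methyl groups, fell further. It read 12.62, 12.69 and 12.58 in RD and 11.79, 11.75 and 11.82 in HFD. The groups were tight and far apart, with means of 12.63 ± 0.05 and 11.79 ± 0.03 (SD, n = 3 each), a fall of 1.79-fold (log2 difference -0.84 ± 0.06; adjusted p = 5.1e-04). By size of fall Gamt stood at rank 89 of all genes, Sardh at 190, Gnmt at 191 and Dmgdh at 321.

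Mat1a, which makes the methyl donor in hepatocytes, was not called. Its log2 signal was 13.89, 13.99 and 13.87 in RD and 13.75, 13.77 and 13.85 in HFD, just short of overlapping. The difference was -0.13 ± 0.07 (adjusted p = 0.356; 95% interval -0.28 to 0.03). The highest value in the whole table was 14.86, and whether bright signals such as those of Mat1a understate a change was not tested.

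Cth, which releases cysteine from cystathionine, was lower in every HFD array without passing the test. It read 12.46, 12.63 and 12.73 in RD and 12.36, 12.25 and 12.41 in HFD. The difference was -0.27 ± 0.09 (adjusted p = 0.131; 95% interval -0.46 to -0.07). RD replicate 1 lay close to the HFD arrays.

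The 5 calls held under each of 13 alternatives, which covered the scaling of the arrays, the choice and filter of probe sets, the fit and each array left out (largest adjusted p = 0.032, for Dmgdh). Under the same alternatives the other 4 measured genes, Bhmt2, Mat1a, Chdh and Cth, were never called (smallest adjusted p = 0.054).

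Several markers of cell types differed between the diets, and their part in these results was not tested. Over all genes, 2.24% were called lower and 3.11% higher. None of the 6 measured hepatocyte markers was called, and their mean log2 level was 13.74 in each RD array and 13.74 to 13.77 in HFD. These markers are bright, with RD means from 11.84 (Asgr1) to 14.42 (Alb) where the highest value of any probe set was 14.86. Whether such signals understate a change was not tested. Of 8 Kupffer cell markers 4 rose (1 on omitting RD replicate 1 or 2, and 2 on omitting RD replicate 3 or HFD replicate 3), with a mean level of 9.64 to 9.70 in RD and 9.98 to 10.51 in HFD. All 4 cholangiocyte markers rose (0 on omitting RD replicate 1 or HFD replicate 1, and 1 on omitting any other array), from 7.45 to 7.53 in RD to 7.89 to 8.09 in HFD. Of 5 monocyte and neutrophil markers 1 rose. None of the 5 endothelial, 5 stellate cell and 3 lymphocyte markers measured was called. The 4 kidney markers, tested because kidney also makes several of these enzymes, had a mean of 5.80 to 5.87 in RD and 5.72 to 5.87 in HFD, and none was called.

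Markers of position in the liver lobule were read as well, and position itself was not measured. The share called lower over all genes was 2.24%. Of 7 markers of pericentral hepatocytes, which surround the central vein, 3 fell (1 or 2 without any 1 array), and the mean level was 11.51 to 11.55 in RD and 11.18 to 11.27 in HFD. Of 4 periportal markers none was called, with 13.02 to 13.08 in RD and 13.06 to 13.09 in HFD. The pericentral genes that fell were the glutamine synthetase Glul (-0.33 ± 0.07), the ornithine aminotransferase Oat (-0.33 ± 0.08) and the ammonium transporter Rhbg (-0.95 ± 0.15). Of the other 4, Lgr5 (-0.42 ± 0.14) and Axin2 (-0.21 ± 0.09) overlapped between the diets. The cytochromes Cyp2e1 (-0.04 ± 0.06) and Cyp1a2 (0.16 ± 0.06) did not overlap, Cyp2e1 with HFD lower and Cyp1a2 with HFD higher, and neither was called. These 7 are named after their values were seen.

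The wider pathway was read from 8 lists with 105 genes, of which 90 were measured. Of these 14 fell, 11 rose and 65 were not called, with a median log2 difference of 0.03. Leaving out 1 array left 7 to 10 falls and 6 to 8 rises, fewest falls without RD replicate 2 or HFD replicate 1. Over all genes 2.24% were called lower and 3.11% higher, the shares to set beside the counts of each list below. Among the brighter genes, tested alone, 17 of 77 pathway genes fell and 12 rose, against 619 and 862 of all 9969. The lists were drawn up with earlier results of these data known.

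**Figure D4:**
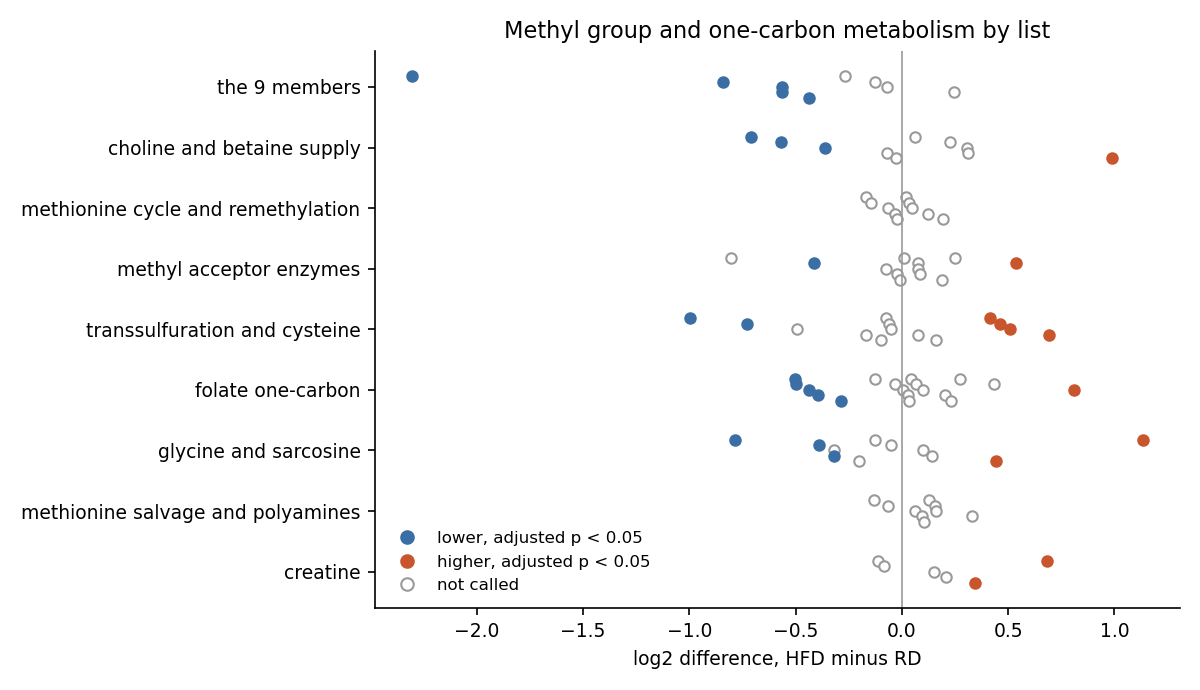
Log2 difference, HFD minus RD (horizontal axis), of the 9 measured genes and of the genes of each pathway list (rows), 1 point a gene, blue where lower, orange where higher and open where not called. Falls and rises are mixed in the transsulfuration, folate and glycine lists, and no gene of the methionine cycle or of methionine salvage was called.

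Among 10 genes of choline and betaine supply, 3 fell and 1 rose. Chka, the choline kinase that commits choline to phosphatidylcholine, rose from 8.74, 8.65 and 8.93 in RD to 9.59, 10.01 and 9.68 in HFD (0.99 ± 0.12; adjusted p = 0.0038). Slc6a12, a betaine transporter, fell from 12.39, 12.63 and 12.51 to 11.94, 11.98 and 11.91 (-0.57 ± 0.08; adjusted p = 0.0062). The choline transporter-like genes Slc44a3 (-0.71 ± 0.08) and, named after its values were seen, Slc44a1 (-0.36 ± 0.07) also fell. Slc44a1 stopped passing when an array other than RD replicate 3 was omitted (largest adjusted p = 0.110). With the probe sets of each gene averaged, Slc44a1 differed by -0.27 and did not pass either (limma adjusted p = 0.056). The choline kinase was therefore higher, and the betaine transporter lower, in each HFD array than in any RD array.

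No gene of the methionine cycle list was called. Mtr, the folate-dependent methionine synthase that does the same job as Bhmt, differed by 0.05 ± 0.08 (adjusted p = 0.807), and its reductase Mtrr by 0.12 ± 0.06 (adjusted p = 0.342). The cobalamin gene Mmadhc (0.19 ± 0.08) and the adenosine kinase Adk (-0.17 ± 0.07) had the smallest p, and 2 of these 10 genes had an unadjusted p under 0.05 (limma). Mat2a, the form of the donor-making enzyme found outside hepatocytes, had no probe set of its own.

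The methyl acceptor list held 1 fall and 1 rise among 12 genes. Gatm, which makes the guanidinoacetate that Gamt methylates, rose from 10.04, 9.91 and 10.25 in RD to 10.74, 10.56 and 10.51 in HFD (0.54 ± 0.10; adjusted p = 0.024). The enzymes before and after guanidinoacetate thus moved in opposite directions. Gatm stopped passing when replicate 1 or 2 of either diet was omitted (largest adjusted p = 0.090). Tpmt, the thiopurine methyltransferase, fell by 0.41 ± 0.08 on the log2 scale, and stopped passing when an array other than RD replicate 1 was omitted (largest adjusted p = 0.077). Nnmt, which methylates nicotinamide, had a difference of -0.80 ± 0.19 and did not pass (adjusted p = 0.051), and it passed without RD replicate 1 (adjusted p = 0.021). Pemt, which spends S-adenosylmethionine to make phosphatidylcholine, differed by 0.08 ± 0.06 (adjusted p = 0.570).

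In the transsulfuration and cysteine list 2 of 14 genes fell and 4 rose. Cbs, which forms cystathionine from homocysteine just before Cth, differed by -0.10 ± 0.08 (adjusted p = 0.601), and Cdo1, which oxidises cysteine, by -0.17 ± 0.07 (adjusted p = 0.250). The rises were those of Gclc (0.69 ± 0.08) and, named after their values were seen, Gclm (0.46 ± 0.07), Gss (0.51 ± 0.08) and Csad (0.41 ± 0.09). Gclc and Gclm are the subunits of the enzyme that starts glutathione synthesis from cysteine, Gss completes it, and Csad leads from cysteine towards taurine. Csad stopped passing on the omission of any array (largest adjusted p = 0.120). The falls were those of the transaminase Got1 (1.99-fold lower; adjusted p = 0.0012) and the thiosulfate sulfurtransferase Tst (-0.73 ± 0.10; adjusted p = 0.0053).

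In the folate list 5 of 18 genes fell and 1 rose. Aldh1l1, the cytosolic enzyme that burns formyl groups of folate to carbon dioxide, fell from 13.06, 13.06 and 13.15 in RD to 12.57, 12.49 and 12.71 in HFD (-0.50 ± 0.08; adjusted p = 0.0096). Mthfd1 (-0.44 ± 0.07) and the cytosolic serine hydroxymethyltransferase Shmt1 (-0.39 ± 0.07) fell with it, as did, named after their values were seen, the folate polyglutamate synthase Fpgs (-0.50 ± 0.10) and Ftcd (-0.29 ± 0.06), which passes carbon from histidine to folate. Mthfd2, a mitochondrial folate dehydrogenase, rose by 0.81 ± 0.14 (adjusted p = 0.016). The cytosolic Mthfd1 and Shmt1 were therefore lower and the mitochondrial Mthfd2 higher, while mitochondrial Shmt2, named after its values were seen, differed by 0.04 ± 0.06. The related genes Mthfd1l (0.21 ± 0.08), Aldh1l2 (0.27 ± 0.09) and Mthfd2l (-0.03 ± 0.07), also named after their values were seen, were not called. A difference by compartment was not tested over the list.

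Of these 6 calls, that of Aldh1l1 was the one that held whichever array was omitted. Omitting RD replicate 2 left 1 fall, omitting replicate 1 of either diet left 2, and omitting any other array left 3. Mthfd1 stopped passing when RD replicate 1 or 2 was omitted (largest adjusted p = 0.065), and Shmt1 when replicate 1 or 2 of either diet was omitted (0.081). Fpgs stopped passing when replicate 3 of either diet, RD replicate 2 or HFD replicate 1 was omitted (0.083). Ftcd stopped passing on every omission (0.120), and Mthfd2 on that of RD replicate 1, RD replicate 2 or HFD replicate 3 (0.068).

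Among 11 genes around glycine and sarcosine, 3 fell and 2 rose. Agxt, which turns glyoxylate into glycine, fell by 0.78 ± 0.11 on the log2 scale (adjusted p = 0.0067), Gcsh, a carrier of the glycine cleavage system, by 0.32 ± 0.06, and Gcat, named after its values were seen, by 0.39 ± 0.08. Psat1, an enzyme of serine synthesis, rose from 7.00, 6.75 and 7.12 in RD to 7.69, 8.27 and 8.31 in HFD (1.14 ± 0.17; adjusted p = 0.0088). Psph, which completes serine synthesis and is likewise named after its values were seen, rose by 0.44 ± 0.10. Gcsh stopped passing on the omission of any array (largest adjusted p = 0.106), Gcat on that of any but RD replicate 1 (0.111) and Psph on that of any but HFD replicate 1 (0.137). Agxt and Psat1 passed each time.

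The remaining lists gave few calls. None of 9 genes of methionine salvage and polyamine synthesis was called, and 1 had an unadjusted p under 0.05 (limma); Sat1, which acetylates polyamines, differed by 0.33 ± 0.10 (adjusted p = 0.115), Mri1 by 0.16 ± 0.08 and the ornithine decarboxylase Odc1 by 0.16 ± 0.08. Of 6 creatine genes other than Gamt and Gatm, 2 rose: the creatine kinase Ckb from 8.99, 9.18 and 9.08 in RD to 9.95, 9.65 and 9.69 in HFD (0.68 ± 0.10; adjusted p = 0.0073), and Slc16a12, a creatine transporter, by 0.35 ± 0.07, which failed on the omission of any array (largest adjusted p = 0.122). Ckmt1, a mitochondrial creatine kinase, differed by 0.21 ± 0.07 and did not pass (adjusted p = 0.156). Within creatine metabolism, Gamt was therefore the gene that fell.

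Bhmt was compared with all other genes except the listed and the predicted ones. The genes whose profile over the 6 arrays was nearest to that of Bhmt, each centred on its own mean, were Nsdhl, Msmo1, Aldoc, Idi1 and Sqle. Likeness was the root mean square difference, which was 0.236, 0.270, 0.355, 0.367 and 0.374 log2 units in that order. Nsdhl, Msmo1, Idi1 and Sqle are enzymes of cholesterol synthesis and Aldoc is an aldolase, and their log2 differences were -2.21, -2.17, -1.79, -2.51 and -2.84 for Nsdhl, Msmo1, Aldoc, Idi1 and Sqle. Their SDs in HFD were 0.07, 0.11, 0.08, 0.33 and 0.13 in the same order, against 0.42 for Bhmt. Of the HFD arrays, replicate 1 was lowest for Nsdhl, Msmo1 and Sqle and replicate 3 for Aldoc and Idi1. These genes share the 6 arrays and were picked for their profile, so the likeness is a description.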

How the data were processed

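Per the labels' protocols, total RNA of 6 liver samples (3 RD, 3 HFD) was labelled for GeneChip arrays. The authors deposited log2 signals, 1 for each probe set on each array, made by summarisation and normalization steps not given in the sources used here. That the log base is 2 was read from the range, 2.28 to 14.86. Array medians were 7.06 to 7.11. The precision is limited by the number of arrays.

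Of 35512 rows, 21789 were listed with 1 gene symbol. The brightest probe set by mean over the 6 arrays stood for each of 19938 genes, with no filter on dim ones. Diet alone was the term of a linear model across all genes (limma 3.58.1 in R 4.3.3; lmFit, then eBayes). Two-sided p-values were adjusted by Benjamini-Hochberg, and genes under 0.05 were called. Intervals are 95% from the moderated fit. The fit was also run on simulated normal data with the same spread in both diets. That run does not check genes of unequal spread such as Bhmt.

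Named are the 10 listed genes, 3 genes of each pathway list with the smallest p, fixed names (among them Cbs, Mtr, Pemt, Gatm, Mat2a, Nnmt, Cdo1 and Shmt1), 3 neighbours on each side of the Bhmt run and the 5 genes nearest to Bhmt in profile. The genes and lists were chosen with earlier results of these data known. Alternatives changed the scaling, the probe sets, the fit or the arrays, 1 choice at a time.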

Additional observations from a re-analysis of the deposited data

How the results depend on the processing

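The 5 calls among the 9 measured genes held in each of 13 alternatives: arrays quantile normalized or centred on their medians, dim genes dropped, probe sets averaged, every row tested, an intensity trend with a robust prior, the replicate number as a block, and each of the 6 arrays omitted. Among the other pathway genes, 14 falls and 11 rises became 6 and 4 with every row tested, and 8 and 7 with the replicate block. Leaving out 1 array gave 7 to 10 falls and 6 to 8 rises. Over all genes, 446 falls and 621 rises became 132 and 142 with every row tested, 245 and 318 with the replicate block, and 178 to 273 and 197 to 371 with 1 array omitted. Samples with the same number had no common sign of r (r = -0.11, 7.2e-05 and 0.12 across genes, which are not independent replicates). Pairs with unlike numbers ranged from -0.12 to 0.13, so these values cannot tell whether same-numbered samples belong together. With the block, 10 named pathway genes no longer passed: Gatm, Slc44a1, Tpmt, Csad, Shmt1, Ftcd, Gcsh, Gcat, Psph and Slc16a12 (adjusted p from 0.051 to 0.0999). In the fit of all rows the dim Bhmt probe set failed with the block (limma adjusted p = 0.056) and passed without it (0.0074). Its difference of -2.14 was the same in both. Scanner background and saturation were not used here, which limits the dim Bhmt probe set in HFD and the brightest genes.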
